A study of Mus musculus with 2 samples.

Results

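The genes of the T cell receptor's signalling apparatus were examined in thymus of mice that overexpress Pla2g10, the gene of group X secreted phospholipase A2. They were the 9 genes Cd3e, Cd3d, Cd3g, Cd247, Lck, Zap70, Fyn, Lat and Lcp2, chosen by gene name on the array. They had 12 probes, and all 9 were among the 9397 genes measured. The transgenic group was Pla2g10-Tg/+ and the control group was made up of littermates without the transgene. Both groups were on a C57BL/6 background, 6 months old, and kept on the same standard diet. The RNA of each genotype was combined from 4 mice, and both genotypes were hybridised together on a pair of Agilent arrays with the dyes exchanged. On array 1 the transgenic RNA carried Cy5 (red), and on array 2 it carried Cy3 (green). The sex of the animals and the promoter that drives the transgene are not given in the sources used here. The arrays were taken as measurements of 1 pool per genotype, so no difference below was checked across animals.

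The receptor chains that recognise antigen cannot signal on their own. They travel with the CD3 chains, whose cytoplasmic tails carry tyrosine motifs that the kinase Lck phosphorylates after contact with a peptide and MHC molecule. The kinase Zap70 binds the phosphorylated tails and in turn phosphorylates the adaptors Lat and SLP-76, the product of Lcp2, on which the branches to calcium, Ras and NF-kB are assembled. In thymus this chain of events is known to control the passage of thymocytes through the pre-receptor checkpoint and through positive and negative selection.

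Of the receptor genes, Lck, Cd247 and Cd3g read lower in the transgenic pool on both arrays, by small amounts, except with median centring of the arrays, where the sign turned with the dye. These 3 of 9 compare with 29.1% of all genes that were lower on both arrays, a like share. For Cd247 this is the brightest probe, and its second measured probe read -0.098 on array 1 and 0.074 on array 2. None of the 9 reached a log2 ratio of 0.25 in size on each array. Few of all genes did, 1.31% lower and 1.68% higher, so the 9 do not stand apart in this. Cd3d, Cd3e, Fyn, Lat and Lcp2 lay within 0.04 of 0 in the mean of both arrays. Zap70 read lower on array 1 alone. Each value below is a log2 ratio, positive where the transgenic pool was higher. It is averaged over the arrays and followed by ± their SD, which is technical (n = 2 arrays, 1 pair of pools). Normalised intensities carry an added offset of 50 units, which pulls the ratios of dim probes towards 0. In whole-thymus RNA, fewer cells that make a transcript and less of it per cell cannot be told apart.

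All 9 genes had a probe well above background in 4 of 4 channels, and no member probe was saturated. Across all spots, 28.5% to 34.1% were well above background in the transgenic channels and 29.0% to 33.2% in the control channels. On each array the share was larger in red than in green. The only Pla2g10 probe was well above background in 0 of 4 channels, with raw mean signals of 35.3 and 43.0 units in the transgenic pool and 45.1 and 39.5 units in the control pool, over a local background of 34 to 36 units. Which part of the gene the transgene holds is not given, so this probe does not check the labels.

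**Figure D1:**
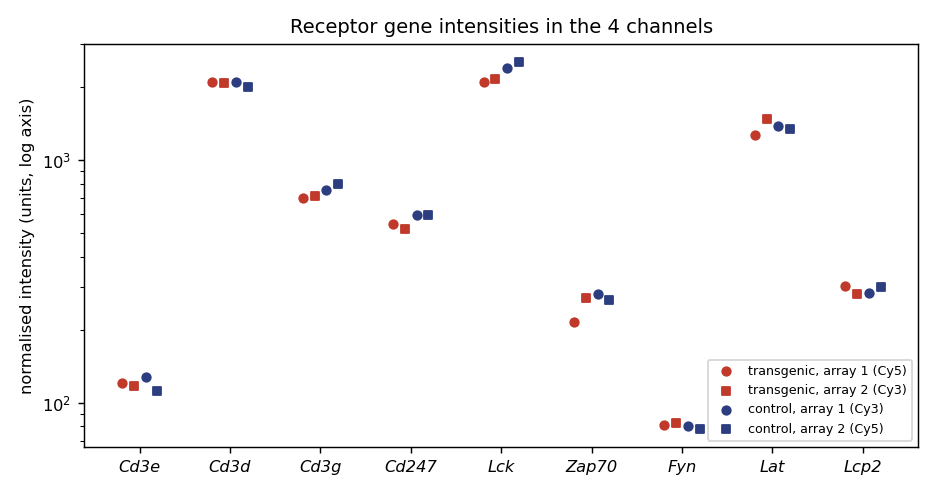
Normalised intensity (units, log axis, offset included) of the probe standing for each receptor gene in the 4 channels. Red points are the transgenic pool, blue points the control pool, circles array 1 and squares array 2, and only points of 1 gene should be compared. Both transgenic points lie below both control points for Cd3g, Cd247 and Lck, an order that was not counted over all genes.

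The CD3 chains were measured first as the subunits that carry the signalling motifs. Cd3d and Cd3g lie next to each other and are transcribed in opposite directions, and their starts are 1355 bases apart on mouse chromosome 9 in the RefSeq annotation (GRCm38.p6). The Cd3e start lies 27825 bases from that of Cd3d. The promoter windows of Cd3d and Cd3g, from 250 bases before to 50 bases after the start, are shown because these neighbours gave different ratios. The Cd3d window is chr9:44981536-44981835 (plus strand) and the Cd3g window is chr9:44980382-44980681 (minus strand), each written 5′ to 3′. Capitals mark the letters AGGAAG, which hold an ETS factor core, the letters TGTGGT, a RUNX core, and the letters CANNTG, an E-box, on either strand, and no matches of different motifs overlapped.
Cd3d: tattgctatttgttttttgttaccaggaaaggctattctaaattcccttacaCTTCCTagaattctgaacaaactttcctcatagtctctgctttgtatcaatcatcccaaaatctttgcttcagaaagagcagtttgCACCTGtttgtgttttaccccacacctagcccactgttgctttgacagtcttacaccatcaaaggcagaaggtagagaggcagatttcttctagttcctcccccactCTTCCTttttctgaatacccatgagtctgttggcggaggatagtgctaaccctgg
Cd3g: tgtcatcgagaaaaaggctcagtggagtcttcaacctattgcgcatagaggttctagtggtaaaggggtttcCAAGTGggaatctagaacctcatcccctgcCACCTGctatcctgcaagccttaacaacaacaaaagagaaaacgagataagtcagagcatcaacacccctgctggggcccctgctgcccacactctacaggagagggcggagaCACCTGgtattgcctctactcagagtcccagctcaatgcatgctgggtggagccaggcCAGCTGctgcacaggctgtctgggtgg
The Cd3d window held 2 matches of the ETS letters, 0 of the RUNX letters and 1 of the E-box letters. The Cd3g window held 0, 0 and 4. Of all 32851 RefSeq windows of this length, 35.4% held the ETS letters, 16.8% the RUNX letters and 72.3% the E-box letters. A match is a description of the sequence and no evidence of binding.

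Cd3d encodes the delta chain, which pairs with epsilon. Its normalised intensity was 2100 and 2069 units in the transgenic pool on arrays 1 and 2, and 2090 and 1997 units in the control pool. The genotypes differed by less than the arrays did within the control pool. Its log2 ratio was 0.0066 on array 1 and 0.051 on array 2, with a mean of 0.029 ± 0.031.

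Cd3g encodes the gamma chain, the other partner of epsilon. It read 698 and 710 units in the transgenic pool and 755 and 795 units in the control pool. Both transgenic values were below both control values, an order that was not counted over all genes. The log2 ratio was -0.11 on array 1 and -0.16 on array 2, with a mean of -0.14 ± 0.034, or 0.909 of the control level. With median centring in place of loess, array 1 read 0.56 and array 2 -0.97, and the mean was -0.20.

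Cd3e encodes the epsilon chain, present in both the gamma and the delta dimer. Its brighter probe read 121 and 117 units in the transgenic pool and 128 and 112 units in the control pool. The control values lay on either side of the transgenic ones, and the log2 ratio was -0.0078 ± 0.10. The second Cd3e probe, designed on a cDNA clone, was well above background in 2 of 4 channels, both red, and read -0.019 ± 0.0094.

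Cd247 encodes the zeta chain, whose homodimer brings several copies of the motif to the receptor. Its brightest probe read 544 and 521 units in the transgenic pool and 596 and 591 units in the control pool. These did not overlap, which was not counted over all genes. The log2 ratios of this probe were -0.13 on array 1 and -0.18 on array 2, with a mean of -0.16 ± 0.036, or 0.896 of the control level. With median centring these became 0.51 and -0.94.
The other Cd247 probes did not repeat that difference. The second probe, also well above background in 4 of 4 channels, read -0.098 on array 1 and 0.074 on array 2, with a mean of -0.012 ± 0.12. The mean of both probes was -0.085. The last of the 3 was well above background in 0 of 4 channels. A further probe, named on the array only by a cDNA clone described as CD3 zeta, was not among the 12 and read -0.013 ± 0.063. A probe of the RIKEN clone 4930549J05Rik, which RefSeq lists as an older name of Cd247, read 0.29 ± 0.10, higher on both arrays. The array describes that clone as unclassifiable testis cDNA, and it was not counted as Cd247.

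On the array's own build (mm8), the Cd3g, Cd3d and Cd3e probes lie on chromosome 9 at 44724628 to 44725212, 44737083 to 44737314 and 44750166 to 44750225. These span 585, 232 and 60 bases. The brightest and second Cd247 probes lie on chromosome 1 at 167698399 to 167698458 and 167693111 to 167694129. The latter spans 1019 bases and the former 60. The kinase probes other than that of Lck lie on chromosome 1 at 36725911 to 36725970 (Zap70) and chromosome 10 at 39254149 to 39254208 (Fyn). The adaptor probes lie on chromosome 7 at 126155353 to 126155412 (Lat) and chromosome 11 at 33990902 to 33990961 (Lcp2). The exon or UTR that a probe lies in is not given here, since no annotation of mm8 was used.

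**Figure D2:**
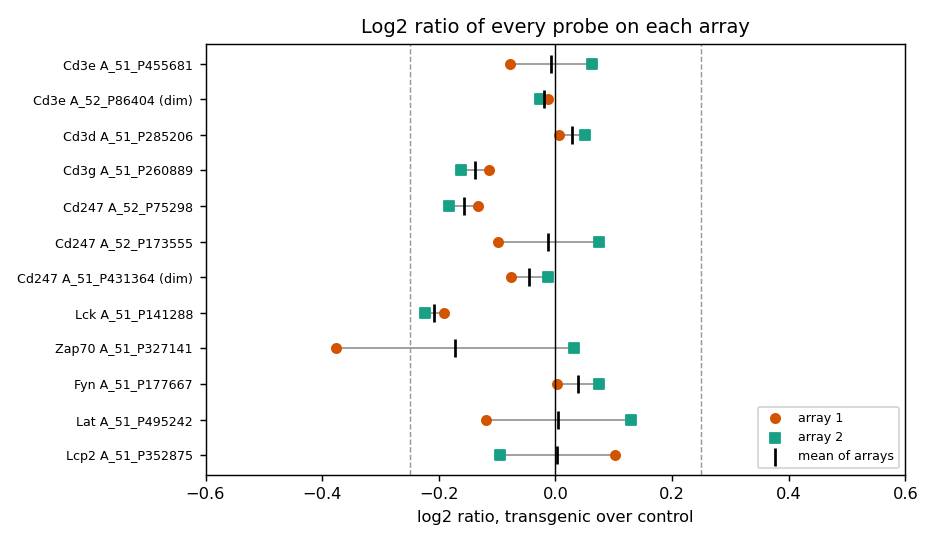
Log2 ratio of transgenic over control for each of the 12 member probes, on array 1 (circles) and array 2 (squares), with the mean as a bar. Dashed lines mark 0.25 in either direction, and "dim" marks probes well above background in fewer than 4 channels. The Lck, Cd3g and brightest Cd247 probes lie left of 0 on both arrays with the loess normalisation shown, which median centring turned on array 1, and Zap70 has the widest gap.

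The kinases came next in the order of the pathway. Lck, the Src family kinase bound to the CD4 and CD8 co-receptors, read 2100 and 2161 units in the transgenic pool and 2398 and 2525 units in the control pool. Both transgenic values were below both control values, an order that was not counted over all genes. In log2 terms the ratio was -0.19 on array 1 and -0.22 on array 2, with a mean of -0.21 ± 0.023, or 0.866 of the control level. This was the lowest mean of the 9 genes, although with an offset of 0 Zap70 read lower (-0.21) than Lck (-0.20). With median centring array 1 read 0.66 and array 2 -1.18, and the mean was -0.26.

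Lck is known to be transcribed from a proximal promoter, active in immature thymocytes, and from a distal one, active in later thymocytes and T cells. RefSeq (GRCm38.p6) holds both starts on the minus strand of chromosome 4, 15269 bases apart, and the windows are shown because Lck had the lowest mean. The downstream window, nearer the coding region as the proximal promoter is, is chr4:129558323-129558622 and the upstream one chr4:129573592-129573891, each written 5′ to 3′ with the same motif letters in capitals.
Lck downstream start: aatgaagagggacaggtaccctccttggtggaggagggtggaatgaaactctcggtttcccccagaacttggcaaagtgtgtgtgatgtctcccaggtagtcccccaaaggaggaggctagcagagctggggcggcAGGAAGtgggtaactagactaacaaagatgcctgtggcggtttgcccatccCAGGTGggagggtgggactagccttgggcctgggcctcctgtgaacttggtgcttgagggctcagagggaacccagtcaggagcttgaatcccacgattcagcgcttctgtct
Lck upstream start: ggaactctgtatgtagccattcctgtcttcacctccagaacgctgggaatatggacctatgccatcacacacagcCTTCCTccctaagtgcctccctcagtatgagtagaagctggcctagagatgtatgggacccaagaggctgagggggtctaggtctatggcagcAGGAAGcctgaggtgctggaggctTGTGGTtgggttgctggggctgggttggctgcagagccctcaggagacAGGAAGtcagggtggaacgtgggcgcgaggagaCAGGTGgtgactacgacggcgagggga
The downstream window held 1 match of the ETS letters, 0 of the RUNX letters and 1 of the E-box letters, and the upstream window 3, 1 and 1. The only Lck probe (mm8 chromosome 4, 129050906 to 129050965) was not assigned to either start, so the array gives 1 value for the gene. Over all 9 genes RefSeq held 12 such windows. Of these, 9 had the ETS letters, 3 the RUNX letters and 12 the E-box letters, against 35.4%, 16.8% and 72.3% of all windows. Lck and Zap70 had more than 1 window each, so windows are not separate genes, and no test was made of these counts.

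Zap70, the kinase that docks on the phosphorylated CD3 tails, read 216 and 270 units in the transgenic pool and 280 and 264 units in the control pool. The transgenic value of array 1 stood below the other 3 values, which lay together. The log2 ratio was -0.38 on array 1 and 0.032 on array 2, so the mean of -0.17 ± 0.29 rests on 1 array. Among 1881 genes within 0.5 log2 units of its brightness, 6.80% had a larger SD between arrays, and their median SD was 0.11. The red over green ratio of the Zap70 probe, averaged over both arrays, was -0.20, the largest in size of the 9.

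Fyn, a second Src family kinase that can phosphorylate the same tails, was measured by a dim probe. It read 80.8 and 82.5 units in the transgenic pool and 80.7 and 78.4 units in the control pool. The 4 values lay close together, and 50 units of each are the added offset. The log2 ratio was 0.039 ± 0.051, and with an offset of 0 it was 0.11, as 0.0044 on array 1 and 0.21 on array 2.

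The adaptors gave no difference that both arrays shared. Lat, the membrane scaffold phosphorylated by Zap70, read 1271 and 1474 units in the transgenic pool and 1381 and 1348 units in the control pool. The control values lay between the transgenic ones. The log2 ratio was -0.12 on array 1 and 0.13 on array 2, with a mean of 0.0050 ± 0.18. Lcp2 encodes SLP-76, the cytosolic adaptor that joins Lat to phospholipase C gamma and Vav. It read 303 and 280 units in the transgenic pool and 283 and 299 units in the control pool, which overlapped. Its log2 ratio was 0.10 on array 1 and -0.096 on array 2, with a mean of 0.0029 ± 0.14.

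By role, the median log2 ratio was -0.073 over the 4 CD3 chains, -0.17 over the 3 kinases and 0.0039 over the 2 adaptors. Over all 9 genes it was -0.0078, against -0.0023 over all genes tested. On array 1 alone the median of the 9 was -0.11 and on array 2 alone 0.032, so its sign depended on the array. For the 3 kinases it was -0.19 and 0.032.

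Of the 9 genes, 3 were lower on both arrays (Cd3g, Cd247 and Lck), against 29.1% of all genes tested. A share of 33.3% is near that background. Another 2 (Cd3d and Fyn) were higher on both, against 28.3% of all genes, and 4 (Cd3e, Zap70, Lat and Lcp2) had opposite signs, against 42.6%. At least 0.25 lower on each array were 0 of the 9 and 1.31% of all genes. At least 0.25 higher were 0 of the 9 and 1.68% of all genes. At least 2-fold higher, a mean of 1 or more with 0.5 on each array, were 0 of the 9 and 0.0319% of all genes, and 0% of all genes were at least 2-fold lower. The dye contrast reads red over green with no regard to genotype. By it 3 of the 9 genes read towards green on both arrays, against 18.1% of all genes, and 1 towards red, against 24.5%. It passed 0.25 on each array in 0 of the 9. Over all genes it did so in 0.309% towards green and 0.234% towards red. With median centring, all genes at least 0.25 from 0 on each array split into 14 higher and 4 lower, against 158 higher and 123 lower with loess.

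Other genes measured on the same arrays gave the range against which these values are read. Lck lay at the point below which 5.01% of genes tested had a lower mean, Zap70 at 7.78%, Cd247 at 9.69% and Cd3g at 12.8%. Bright genes were spread more widely. Among the 186 genes within 0.5 log2 units of the brightness of Lck, the SD of the means was 0.20 and 12.4% had a lower mean. Among the 624 genes near Cd3g, 21.0% had a lower mean, and among the 838 near Cd247, 14.4%. The SD between arrays was exceeded by 85.5% of genes near Lck, 83.2% near Cd3g and 80.5% near Cd247. These 3 were singled out for being lower on both arrays, which favours a small SD, so that adds nothing to their direction. For Zap70, 6.80% of genes near it had a larger SD.

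**Figure D3:**
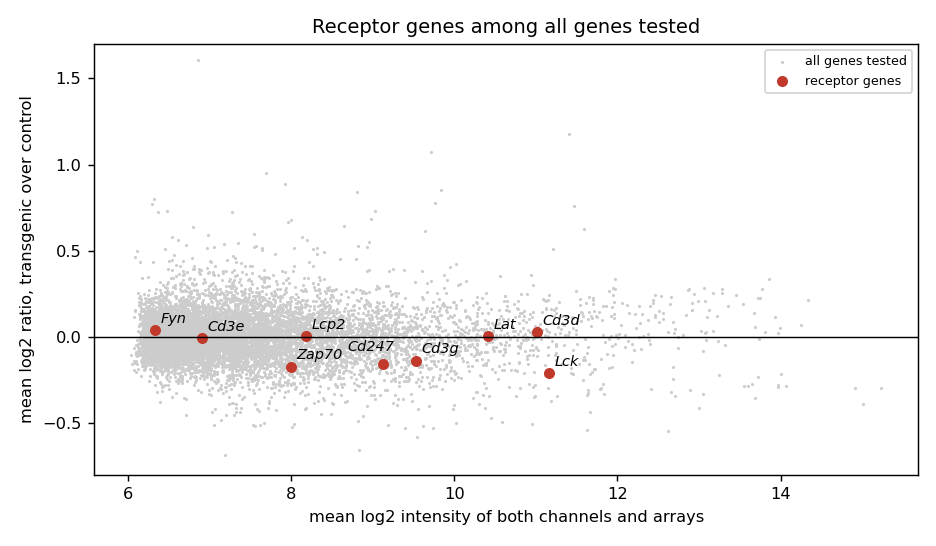
Mean log2 ratio of transgenic over control against mean log2 intensity for 9397 genes (grey) and the 9 receptor genes (red, named). The receptor genes lie between -0.21 and 0.039, inside the cloud of all genes at their intensity.

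The scanner software gives its own log ratio of each spot with an error from its model of that array. For the 9 genes and the second Cd247 probe this error was 0.20 to 0.28 log2 units. Lck read -0.15 on array 1 and -0.30 on array 2 by the software, with errors of 0.20 and 0.21. The first was smaller than its error and the second larger. Zap70 read -0.51 with an error of 0.21 on array 1 (software p-value 0.0151) and 0.10 on array 2 (0.616). It was the only p-value under 0.05 for the 9 genes on either array. Over all genes tested, array 1 gave such p-values for 7.06% in the lower and 7.99% in the higher direction, and array 2 for 4.53% and 4.76%. These p-values compare the channels of 1 array and say nothing of the spread between mice.

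Lck and Cd3g kept their sign on both arrays under each setting tried except median centring. In those 8 settings the mean of Lck ran from -0.23 to -0.20, that of Cd247, which also kept its sign, from -0.17 to -0.085, and that of Cd3g from -0.142 to -0.137. The 8 are not separate checks. The settings on dim and saturated probes changed no value of the 9, and the mean over probes changed Cd247 alone. The series table repeats the software's ratios. Cd3d was lower on array 2 (-0.013) with the software's log ratios, and Fyn was lower on array 1 (-0.030) there and without background correction (-0.020). Cd3e, Zap70, Lat and Lcp2 had opposite signs on the arrays in each of these settings. With median centring the medians of all genes were 0.38 on array 1 and -0.44 on array 2, and all 9 genes read higher on array 1 and lower on array 2.

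**Figure D4:**
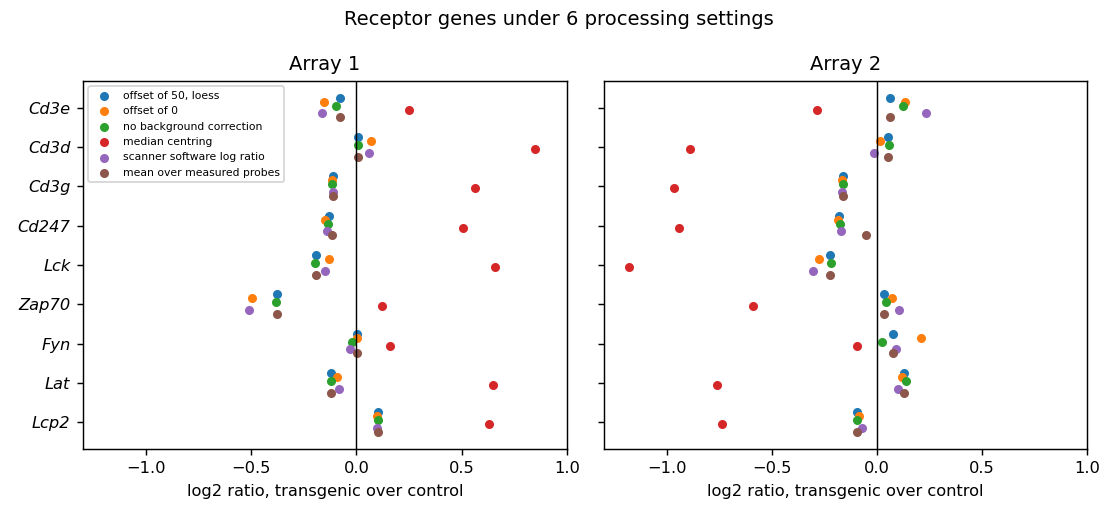
Log2 ratio of transgenic over control for the 9 receptor genes on array 1 (left) and array 2 (right) under 6 processing settings, 1 colour each. Lck, Cd3g and Cd247 lie left of 0 on both arrays except with median centring, which puts all 9 genes right of 0 on array 1 and left of 0 on array 2.

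The other genes of the pathway were read from 7 lists, which share no measured gene. Of 90 listed genes 69 were measured, 38 of them lower on both arrays (55.1%, against 29.1% of all genes) and 14 higher on both (20.3%, against 28.3%). At least 0.25 lower on each array were 5 of the 69 (7.25%, against 1.31%), and 1 was at least 0.25 higher, against 1.68% of all genes. With an offset of 0 these counts were 11 and 2, against 390 and 548 of all 9397 genes. By the scanner software or the series table they were 12 and 2, against 477 and 655 of all genes. The median of the 69 was -0.061, and -0.084 to -0.061 over the settings other than median centring. With median centring 3 of the 69 were lower and 0 higher on both arrays, against 419 and 196 of all genes. In that setting 0 of the 69 passed 0.25, and their median was -0.11, as 0.46 on array 1 and -0.71 on array 2. The list counts and directions below are those with loess. Genes are not replicates, and no test was made of these counts. The 38 lower genes include Ubash3a, which was measured through the control pool only, where it read higher.

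Among co-receptors and accessory receptors, 8 of 12 measured genes were lower on both arrays (66.7%, against 29.1% of all genes). Another 1 was higher (8.33%, against 28.3%), and the median was -0.10. Cd8a, the co-receptor chain that brings Lck to MHC class I, was past 0.25 on each array at -0.51 ± 0.00073, and its other probes read -0.56 and -0.19. Of the receptor's own chains, 2 of 6 listed genes were measured. Ptcra, the pre-receptor alpha chain of early thymocytes, was at -0.30 ± 0.070.

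Among other proximal kinases, 4 of 7 were lower on both arrays and 3 higher, with a median of -0.029 (-0.0026 on array 1 and -0.055 on array 2) and none past 0.25, or 1 with an offset of 0 or by the scanner software. Csk, which phosphorylates the inhibitory tail of Lck, had the largest mean in size at -0.20 ± 0.045, and its other probe read -0.16.

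Among other adaptors and scaffolds, 9 of 15 measured genes were lower on both arrays (60.0%, against 29.1% of all genes). Another 2 were higher (13.3%, against 28.3%), and the median was -0.14. Nck1, an adaptor that links the CD3 tails and SLP-76 to actin, was past 0.25 at -0.36 ± 0.14. Another measured probe read -0.25, and one that was too dim to count as measured read -0.017. Measured probes also differed for other genes of this list. The brightest probe and another read 0.053 and 0.80 for Nck2, 0.11 and -0.28 for Trat1, and 0.043 and -0.24 for Grap2. With the mean over measured probes, 11 of the 15 were lower on both arrays and 2 higher. By that setting 1 was at least 0.25 lower on each array and 1 at least 0.25 higher.

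Among phosphatases and ubiquitin ligases that restrain the receptor, 6 of 13 measured genes were lower on both arrays and 2 higher, with a median of -0.085 (-0.22 on array 1 and -0.069 on array 2). Sla2, an adaptor that promotes removal of the receptor, was at -0.38 ± 0.090, and Ptpn7, a phosphatase of MAP kinases, at -0.29 ± 0.0086. Each had a second probe that was not measured and read -0.069 and -0.12.

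In the branches below Lat, 8 of 14 measured genes were lower on both arrays and 2 higher, with a median of -0.054 (-0.0083 on array 1 and -0.12 on array 2) and none past 0.25. Plcg1, the phospholipase C that Lat recruits, had the largest mean in size at 0.25 ± 0.037. Its other 2 probes, which were not measured, read -0.034 and 0.00093.

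Counterparts of these kinases and adaptors in other blood lineages were mostly dim. Of 14 listed genes 6 were measured, 4 of them higher and 2 lower on both arrays, with a median of 0.065 (0.10 on array 1 and 0.029 on array 2). With an offset of 0 the median was 0.13, and 0.17 by the scanner software or the series table. Blnk, the B cell counterpart of SLP-76, was past 0.25 at 0.34 ± 0.11.

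**Figure D5:**
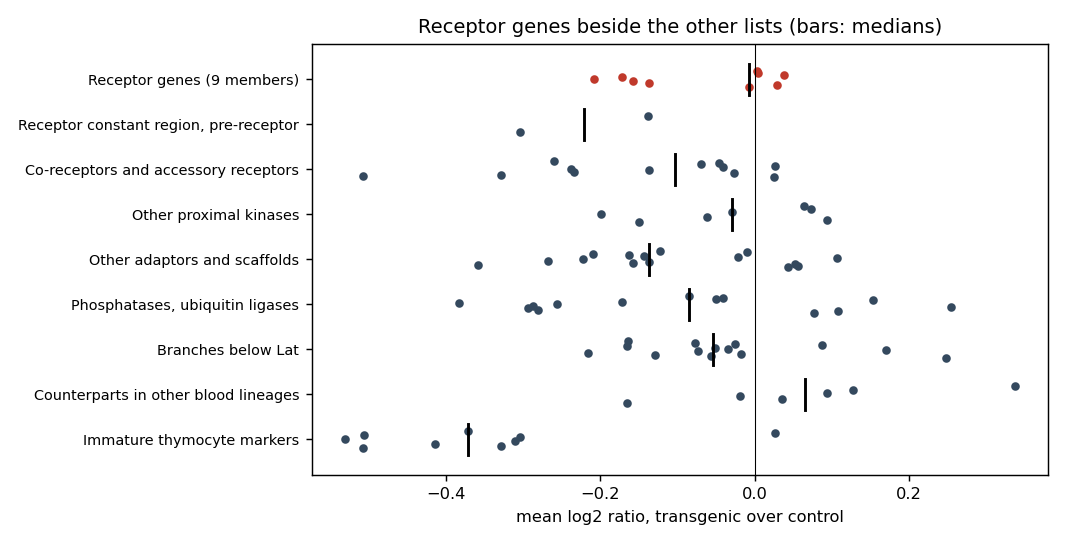
Mean log2 ratio of transgenic over control for the measured genes of each list (points) with the list's median (bar), with the 9 receptor genes in red at the top. The medians are -0.0078 for the receptor genes and -0.37 for the immature thymocyte markers, and with median centring -0.056 and -0.43, with opposite signs on the arrays.

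Markers of the cells in the sample differed between the pools in the same data. Of 10 markers of immature thymocytes, 9 were measured, with a median of -0.37. Lower on both arrays were 8 (88.9%, against 29.1% of all genes), and 7 were at least 0.25 lower on each (77.8%, against 1.31%). With median centring 1 was lower on both arrays and 0 passed 0.25. An offset of 0 left 6 past 0.25. The mean over measured probes left 7 lower on both arrays and 5 past 0.25. The brightest Arpp21 probe read -0.37, and its other measured probes 0.45 and -0.11. The summed intensity of the 9 markers was 21290 and 21201 units in the transgenic pool and 27413 and 27728 in the control pool. For the 9 receptor genes the sums were 7434 and 7684 against 7992 and 8009 units. Lck alone gave 2100 and 2161 against 2398 and 2525 of these, so the sums do not show a shared drop. The median log2 ratio of the 9 was -0.0078, with 3 lower and 2 higher on both arrays. Cd8a, Cd8b1 and Ptcra are in the immature thymocyte list as well as in the pathway lists. Of 9 mature T cell markers 6 were measured, with a median of 0.064 and sums of 4651 and 4413 against 6017 and 5144 units, and 3 were higher and 2 lower on both arrays. Ms4a4b (0.67) and Ccr7 (0.45) were at least 0.25 higher on each array, as were 1.68% of all genes. The brightest probe of Klf2 read -0.54 and its other measured probe 0.59, so the direction of that gene depends on the probe. The probe at -0.54 was also the brightest of the 6 summed, at a mean log2 intensity of 11.6, with Cd52 next at 10.3. The lower sums of the mature T cell markers therefore depend mostly on that 1 probe.
Of the red cell and platelet markers 3 of 9 were measured, all of them red cell genes (Hbb-bt, Hba-a1 and Alas2). They summed to 5019 and 5786 against 2663 and 2455 units. The platelet genes Pf4, Ppbp and Itga2b were not measured. Adipocyte markers (6 of 9) summed to 1793 and 1709 against 1036 and 979 units. Of these 6, 4 were well above background in the transgenic pool only, so they were measured through the group in which they are high. Fabp4 (0.78) and Lpl (0.38) were well above background in both pools. Macrophage and neutrophil markers (9 of 10) summed to 2880 and 2704 against 2357 and 2262, with a median of -0.0016 and 5 genes below 0. The neutrophil gene S100a9 read 0.62, and the macrophage genes C1qa, C1qb, C1qc, Csf1r and Cd68 read -0.18 to -0.0016. Csf1r and Cd68 were well above background in the control pool only. They were measured through the group in which their means were higher. In the same way, Il7r, Klrd1 and Epcam of the other marker lists were measured through the transgenic pool only, where they read higher. Thymic epithelial markers (7 of 8) summed to 3512 and 3913 against 3362 and 3106, and fibroblast and endothelial markers (6 of 7) to 1171 and 1101 against 922 and 953. Some receptor genes are also used by natural killer, mast and B cells. Of the natural killer and mast cell markers 3 of 10 were measured (441 and 452 against 437 and 441 units), and Ncr1, Klrb1c, Prf1, Eomes, Cpa3 and Kit were not well above background. Among B cell markers, Cd79b was measured at 181 and 171 against 163 and 159 units, and Ms4a1 and Pax5 were not well above background. The part of these markers in the receptor genes' values was not tested.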

How the data were processed

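The deposited scanner files give, for each of 41534 transcript spots and 2256 control spots per array, the mean spot intensity and the median intensity of its surroundings in both colours, linear and uncorrected, per the file headers (Feature Extraction 9.5.1.1). The software's log10 ratio of red over green, its log10 error and its p-value come from processed signals with spatial detrending, lowess and surrogates, per the file headers. The authors' series table holds log10 ratios of those processed signals.

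Mean signals were corrected by normexp with an offset of 50 and normalised by loess within each array (limma 3.58.1, R 4.3.3), with control and outlier spots at weight 0. Array 2 was multiplied by -1. Channel intensities were taken after loess and Aquantile scaling. A gene counted as measured if, on both arrays, one and the same genotype had a probe of it well above background, and the brightest such probe stood for it (12234 probes, 9397 genes, named through RefSeq GRCm38.p6). The labels do not say that the arrays hold separate pools, so they were taken as a technical dye swap and the report has no p-value over animals. The number of arrays limits the precision. The loess and dye-turning steps were tested on simulated data. The changes put in were larger than those read for the receptor genes, so ratios of that size were not checked.

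The members and lists were chosen with earlier results of these data known. Pathway genes named were those past 0.25 on each array, up to 4 per list, or the 1 with the largest mean. Nck2, Trat1 and Grap2 were named in addition because their probes differed. Ubash3a was named because it was well above background in the control pool only. With 2 arrays of 1 contrast, no genes of similar pattern were ranked. Alternatives were an offset of 0, no background correction, median centring, the software's ratios, the series table, the mean over probes, no filter on dim probes, no saturated probes and each array alone.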

Additional observations from a re-analysis of the deposited data

How the results depend on the processing

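The 9 receptor genes had a median of -0.0078 and counts of 3 lower and 2 higher on both arrays. With median centring both counts were 0, with no background correction 1 gene was higher, and 0 were by the scanner software or the deposited log10 values. Read on 1 array at a time, the median ran from 0.0323 to -0.1133, the number of genes below 0 from 4 to 6, the number above 0 from 3 to 5, the number at least 0.25 lower from 0 to 1 (Zap70 on array 1), and the number at least 0.25 higher was 0 on each. The other values of these results, 41 in all, stayed within the spread between arrays or within 1.5 times the count. With no filter on dim probes the brightest probe of each receptor gene was the one used before, and no tested probe was saturated, so those alternatives changed no value of the 9.

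Counts over all genes moved more. At least 0.25 lower and higher on each array were 123 and 158 genes, and 390 and 548 with an offset of 0, 477 and 655 by the software or the deposited values, and 4 and 14 with median centring. At least 2-fold lower and higher were 0 and 3, and 1 and 26 with an offset of 0, 5 and 33 by the software or the deposited values, and 0 and 1 with median centring. Lower and higher on both arrays were 2731 and 2660, 419 and 196 with median centring, and 7130 and 7296 of 27564 genes with no filter. The cause of these shifts was not tested, except that the last setting tests more genes. Signal over background limits the dimmest Cd247 probe (0 of 4 channels above background), the second Cd3e probe (2 of 4) and the Fyn probe. No paired analysis was possible because each array is 1 sample that already holds both genotypes, so there are no separate groups of arrays to pair by number.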
